A study of Mus musculus with 4 samples.

Results

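The genes described here are 39 type I interferon-stimulated genes, listed by gene symbol and chosen with earlier results of these data known. Of these, 37 had at least 1 probe set annotated to that symbol alone, out of 18193 named genes on the array, and 36 of the 37 had a signal above 55.7 on at least 1 array. Signal here is hybridisation intensity on a linear scale, and 55.7 is a background level set from probe sets of smell and taste receptor and hair protein genes with no known use in spleen. Ifi204 lay under that level on all 4 arrays. Isg15 was represented only by a probe set that also carries another symbol, Ifi44 was not analysed here, and neither is given a value.

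Type I interferons are cytokines that signal through a receptor made of the Ifnar1 and Ifnar2 chains, which activates the kinases Jak1 and Tyk2. The transcription factor Stat2 then joins Irf9 in a complex that binds interferon-stimulated response elements, short DNA motifs in the promoters of the responding genes. The products of these genes bind or degrade viral RNA, block viral entry or protein synthesis, sense foreign nucleic acids, and tune the response itself. Dendritic cells (DCs) both respond to interferon and can make it, and a low level of interferon-stimulated transcripts is known from uninfected mice.

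RNA came from 4 subsets of spleen DCs with high CD11c, hybridised to 1 Affymetrix array each. The subsets were titled CD8+CX3CR1+, CD4+, DN (the usual abbreviation for cells with neither CD4 nor CD8) and CD8+CX3CR1- DCs. All came from Cx3cr1gfp/+ mice on the C57BL/6 background, in which a gene for green fluorescent protein stands in place of 1 copy of the chemokine receptor gene Cx3cr1, and all carried a minus sign in the label for treatment with BMP4. The labels state neither the age and number of the mice nor whether cells of several mice were pooled. With 1 array per subset there is no test, no standard deviation and no replicate check, and each difference below describes 2 arrays. The number of arrays limits the precision. Genes were counted as different at 4-fold or more, with 2-fold as a second threshold, and a fold is written "at least" where 1 of its arrays lay under the background level. Signals of different genes come from different probes and were not compared with each other.

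The sort markers went with the titles. Cd8a had a signal of 2530.2 in CD8+CX3CR1+ DCs, 18.7 in CD4+ DCs, 129.5 in DN DCs and 4742 in CD8+CX3CR1- DCs, Cx3cr1 was highest in CD8+CX3CR1+ DCs (894), Cd4 in CD4+ DCs (563.5), and Itgax, which encodes CD11c, lay between 3271 and 6415 on all 4. A label field for the DC type differs from the title for the DN and CD8+CX3CR1- arrays, and the titles were used. The CD4+ array stood somewhat apart. On it 47.6% of probe sets were above 55.7, against 41.0% to 42.5% on the other arrays, and its 3'/5' ratio of the Gapdh control probe sets, which rises as RNA integrity falls, was 11.8, against 7.56 to 8.98. The same ratio for actin was 2.32 in CD8+CX3CR1+ DCs, 2.86 in CD4+ DCs, 2.23 in DN DCs and 1.79 in CD8+CX3CR1- DCs, and so was also highest on the CD4+ array. CD8+CX3CR1- DCs stood apart by markers of DC type. Over 8 measured markers of CD8 DCs the summed signal was 3739 in CD8+CX3CR1+ DCs, 3913 in CD4+ DCs, 9145 in DN DCs and 30376 in CD8+CX3CR1- DCs, and over 7 markers of CD4 and CD11b DCs it was 14488 in CD8+CX3CR1+ DCs, 13665 in CD4+ DCs, 13729 in DN DCs and 259.5 in CD8+CX3CR1- DCs. In the sum of CD4 and CD11b DC markers, CD8+CX3CR1+ DCs were thus near CD4+ and DN DCs. In the sum of CD8 DC markers they were near CD4+ DCs but under DN DCs, with 4 of the 8 markers at least 2-fold lower and 0 higher. Every comparison with CD8+CX3CR1- DCs is also one between arrays that differ in these markers. In these sorted populations, fewer cells that express a gene and less RNA per cell cannot be told apart.

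Promoters of 28 of the 39 genes stood in the RefSeq promoter table used here (build GRCm38.p6). The core letters of the interferon-stimulated response element, GAAA, any 2 bases and GAAA again, on either strand, were present within the 250 bases before the gene start in 10 of these 28 (35.7%), against 936 of 27025 genes in the whole table (3.46%), or 2.98% of all windows of that length. The 10 were Ifit1, Ifit3, Oas1a, Oas3, Isg15, Rsad2, Ifi203, Stat2, Slfn5 and Slfn8. The 5 promoters below are shown because these genes had the widest range of signal across the arrays among those with a match. Each line gives the 180 bases that end just before the gene start, 5′ to 3′ on the strand of the gene, with the matching letters in capitals.
Ifit3, chr19:34583349-34583528, plus strand: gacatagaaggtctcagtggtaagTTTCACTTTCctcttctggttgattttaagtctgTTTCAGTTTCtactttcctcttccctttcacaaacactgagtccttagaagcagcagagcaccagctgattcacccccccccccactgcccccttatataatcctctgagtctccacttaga
Oas1a, chr5:120907526-120907705, minus strand: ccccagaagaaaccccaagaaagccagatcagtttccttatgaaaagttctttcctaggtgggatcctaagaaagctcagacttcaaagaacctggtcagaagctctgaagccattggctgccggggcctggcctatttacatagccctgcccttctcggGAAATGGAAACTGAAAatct
Rsad2, chr12:26456453-26456632, minus strand: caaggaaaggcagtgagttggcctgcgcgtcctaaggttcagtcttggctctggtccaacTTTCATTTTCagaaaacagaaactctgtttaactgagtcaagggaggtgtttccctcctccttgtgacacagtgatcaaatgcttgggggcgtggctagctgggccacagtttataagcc
Slfn8, chr11:83020811-83020990, minus strand: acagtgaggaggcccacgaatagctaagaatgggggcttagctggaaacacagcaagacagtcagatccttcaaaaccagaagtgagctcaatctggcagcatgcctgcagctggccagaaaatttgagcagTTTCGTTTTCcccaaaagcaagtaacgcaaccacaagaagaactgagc
Ifit1, chr19:34640709-34640888, plus strand: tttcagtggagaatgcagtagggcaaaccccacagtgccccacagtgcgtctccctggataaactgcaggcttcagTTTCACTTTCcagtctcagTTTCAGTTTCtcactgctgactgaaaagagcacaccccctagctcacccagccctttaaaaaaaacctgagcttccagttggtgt
Ifit3 and Ifit1 each held 2 separate matches, both on the strand opposite to the gene, with the same letters in the same order. Oas1a held 2 overlapping matches that run up to a few bases before its start, and Rsad2 and Slfn8 held 1 match each. For Slfn8, the first of 2 annotated starts is shown. The core of the gamma-activated site, TTCNNNGAA, which reads the same on both strands, was found in 4 of the 28 genes (14.3%), namely Ifit2, Oas1a, Isg20 and Eif2ak2, against 8.13% of all genes in the table. A match says only that the letters are there.

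The interferon-stimulated genes were highest most often in CD4+ DCs and lowest most often in CD8+CX3CR1- DCs. Among the 36 genes with any difference above 55.7, CD8+CX3CR1+ DCs were highest for 0, CD4+ DCs for 25 (69.4%), DN DCs for 5 and CD8+CX3CR1- DCs for 6. Of the 12608 named genes above 55.7 on at least 1 array, CD8+CX3CR1+ DCs were highest for 22.7%, CD4+ DCs for 32.5%, DN DCs for 18.1% and CD8+CX3CR1- DCs for 26.9%. CD8+CX3CR1- DCs were lowest, or at background together with others, for 21 of the 36 (58.3%), against 43.3% of the 12608. The full order CD4+, DN, CD8+CX3CR1+, CD8+CX3CR1-, from high to low, was seen for 15 of the 37 genes (40.5%) and for 4.58% of the 12608. Any difference counted here, however small. Examples are 1.04-fold between DN and CD8+CX3CR1+ DCs for Ifitm3 and 1.17-fold between the CD8+ subsets, near background, for Ddx58. With each array scaled to an equal median, which lowers the CD4+ array by 0.22 on the log2 scale and raises the others by 0.04 to 0.10, CD4+ DCs were highest for 20 of 36 of these genes and for 17.5% of all named genes with a difference. The part of the higher 3'/5' ratios of the CD4+ array in this order was not tested.

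**Figure D1:**
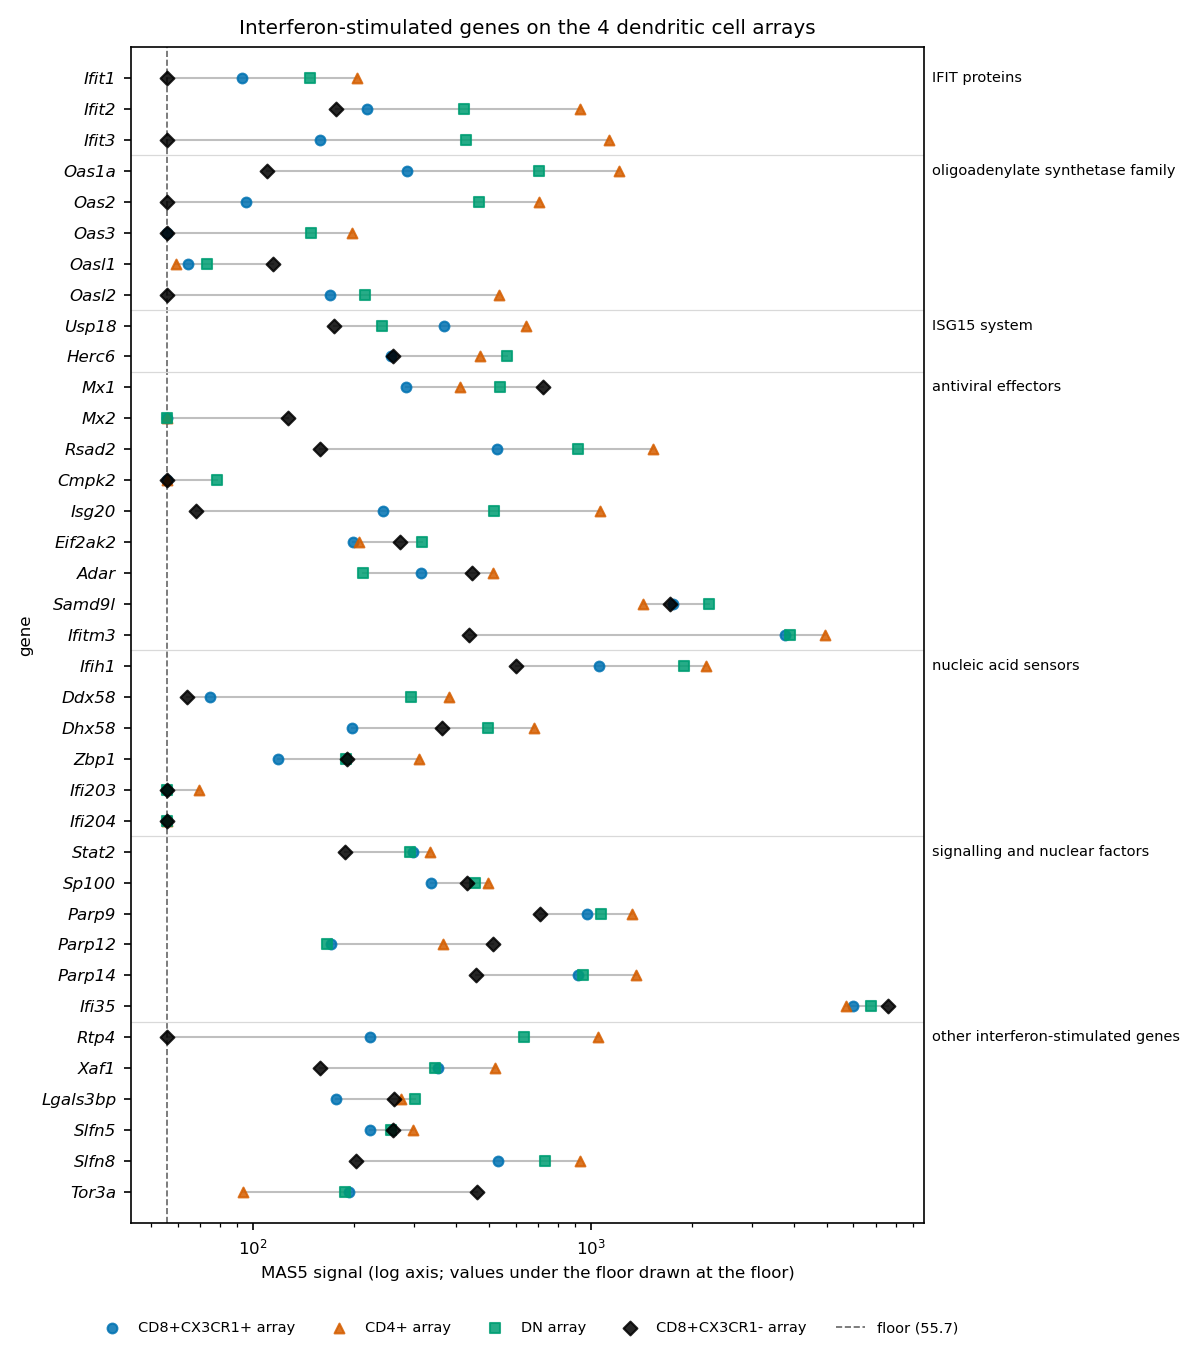
Signal of each interferon-stimulated gene (rows, grouped by role) on the CD8+CX3CR1+, CD4+, DN and CD8+CX3CR1- arrays, on a log axis, with 1 point per array and values under 55.7 drawn at that level. The CD4+ points lie at the right end of 25 rows, and the CD8+CX3CR1- points lie at the left end of the rows for Ifit1, Ifit2, Ifit3, Oas1a, Oas2, Rsad2, Isg20, Ifitm3 and Rtp4.

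By pairs of arrays, the median difference and the number of genes past 4-fold were largest between CD4+ and CD8+CX3CR1- DCs. In CD4+ DCs 11 of the 37 genes were at least 4-fold higher, against 1.25% of all 18193 named genes, and 1 gene, Tor3a, was at least 4-fold lower, against 0.819%. At 2-fold, 17 were higher (all named genes 6.31%) and 2 lower (4.70%). The 11 were Ifit2, Ifit3, Oas1a, Oas2, Oasl2, Rsad2, Isg20, Ifitm3, Ddx58, Rtp4 and Slfn8, and the median log2 difference over the 37 genes was 0.90, against 0 over all named genes. Since undetected genes cannot pass, each share over the 12608 genes above background is 1.44 times the share given for all named genes.

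In DN DCs 8 of the 37 genes were at least 4-fold higher than in CD8+CX3CR1- DCs (all named genes 0.890%) and 0 lower (0.511%), while at 2-fold 17 were higher (4.28%) and 4 lower (3.29%). The 8 were Ifit3, Oas1a, Oas2, Rsad2, Isg20, Ifitm3, Ddx58 and Rtp4, and those lower at 2-fold were Adar, Mx2, Parp12 and Tor3a. The median log2 difference was 0.60. The 6 pairs are built from 4 arrays, so comparisons that share an array, as these do with the CD8+CX3CR1- array, are not independent of each other.

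Between the CD8+ subsets, CD8+CX3CR1+ DCs were at least 4-fold higher for 1 of the 37 genes, Ifitm3 (all named genes 1.15%), and lower for 0 (0.797%). At 2-fold, 11 genes were higher (5.35%), among them Ifit3, Oas1a, Oasl2, Rsad2, Isg20 and Rtp4, and 4 were lower (4.03%), namely Mx1, Mx2, Parp12 and Tor3a. The median log2 difference was 0.02, with 19 genes above, 14 below and 4 equal at background.

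**Figure D2:**
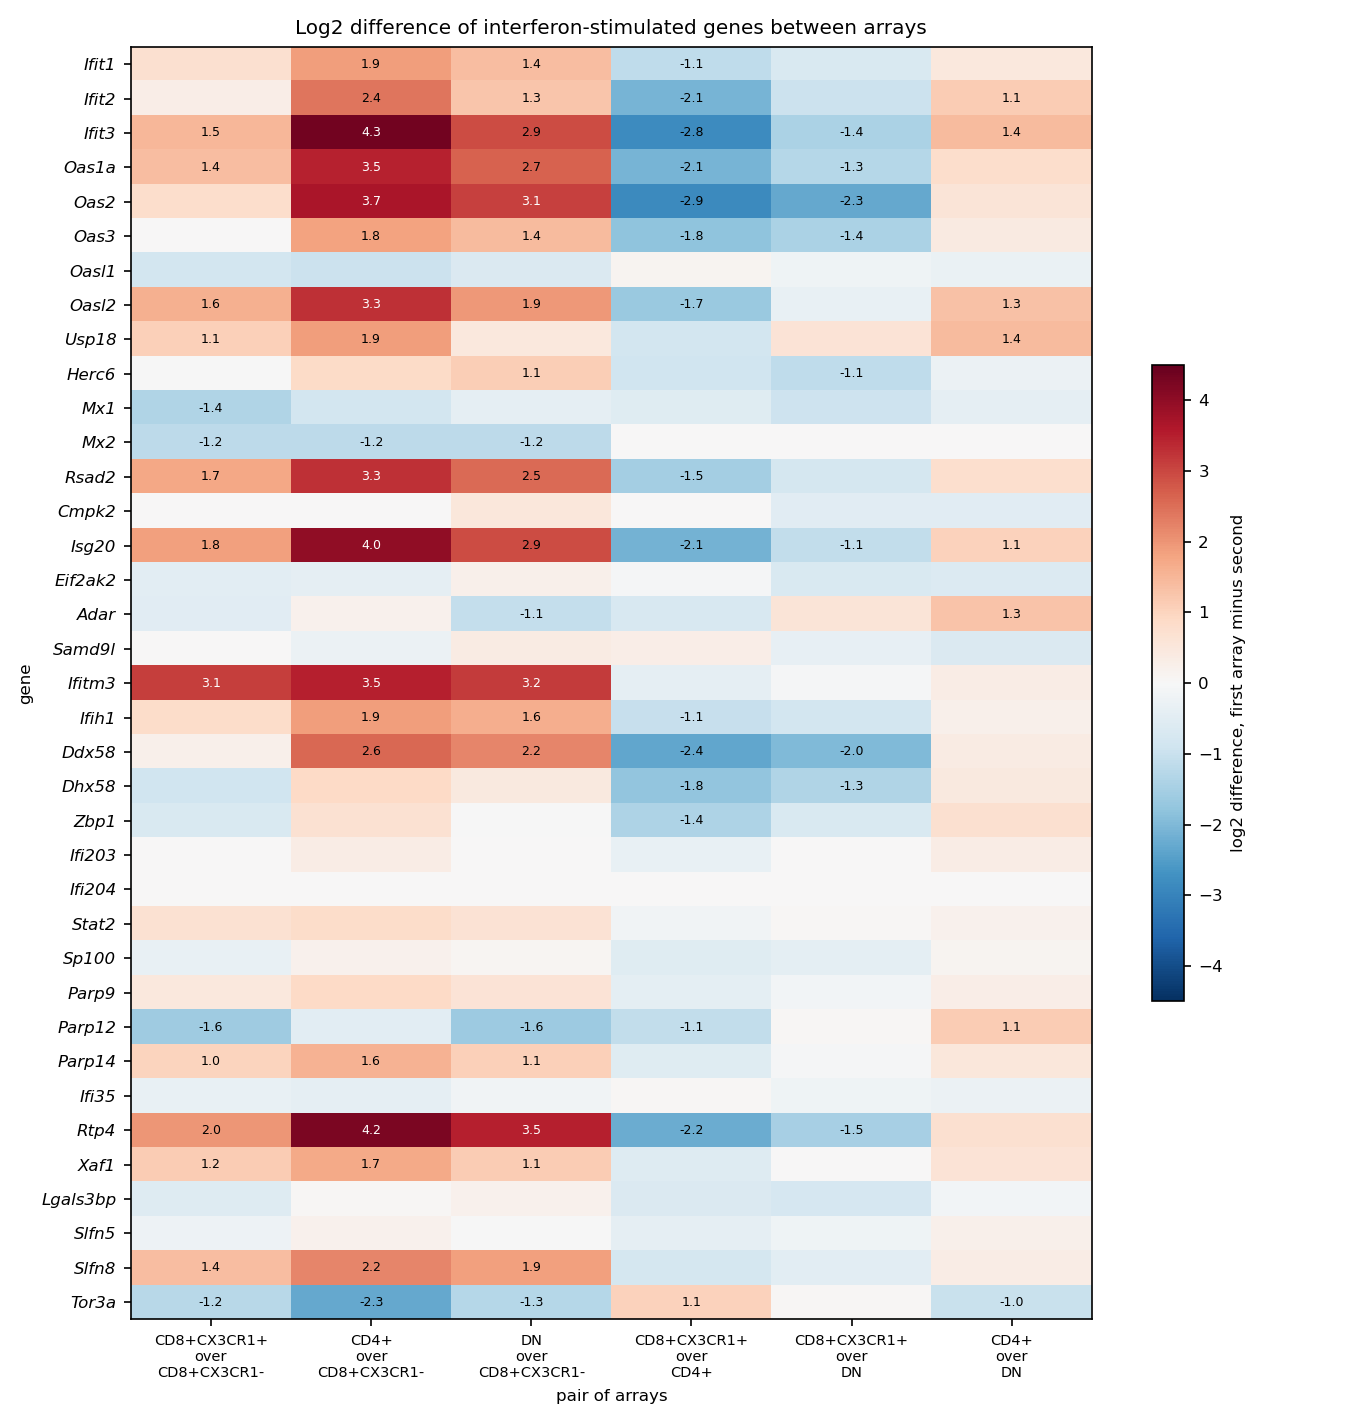
Log2 difference of signal (colour; first named array minus the second) for the 37 measured interferon-stimulated genes in 6 pairs of arrays, with the value printed where it is at least 1 in size. Red cells gather in the CD4+ over CD8+CX3CR1- and DN over CD8+CX3CR1- columns, and blue cells in the CD8+CX3CR1+ over CD4+ column.

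Against CD4+ DCs, CD8+CX3CR1+ DCs were at least 4-fold lower for 7 of the 37 genes (all named genes 0.258%) and higher for 0 (0.275%). These 7 were Ifit2, Ifit3, Oas1a, Oas2, Isg20, Ddx58 and Rtp4. At 2-fold 15 were lower (3.39%), and 1 was higher (3.10%), Tor3a, whose other probe sets went the opposite way. The median log2 difference was -0.71, with 30 genes below, 4 above and 3 equal. With each array scaled to an equal median, the median was -0.40 and the number at least 4-fold lower was 3.

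Fewer genes passed between CD8+CX3CR1+ and DN DCs, with 1 gene at least 4-fold lower, Oas2 (all named genes 0.0934%), and 0 higher (0.192%). At 2-fold 9 were lower (2.03%) and 0 higher (2.06%), and the median was -0.46. The 9 were Ifit3, Oas1a, Oas2, Oas3, Herc6, Isg20, Ddx58, Dhx58 and Rtp4. Between CD4+ and DN DCs, 0 genes were at least 4-fold higher in CD4+ DCs (all named genes 0.0495%) or lower (0.126%), while at 2-fold 7 were higher (3.01%) and 1 lower (2.24%). The 7 were Ifit2, Ifit3, Oasl2, Usp18, Isg20, Adar and Parp12. The median of 0.34 in this pair was 0.09 after scaling to an equal median.

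**Figure D3:**
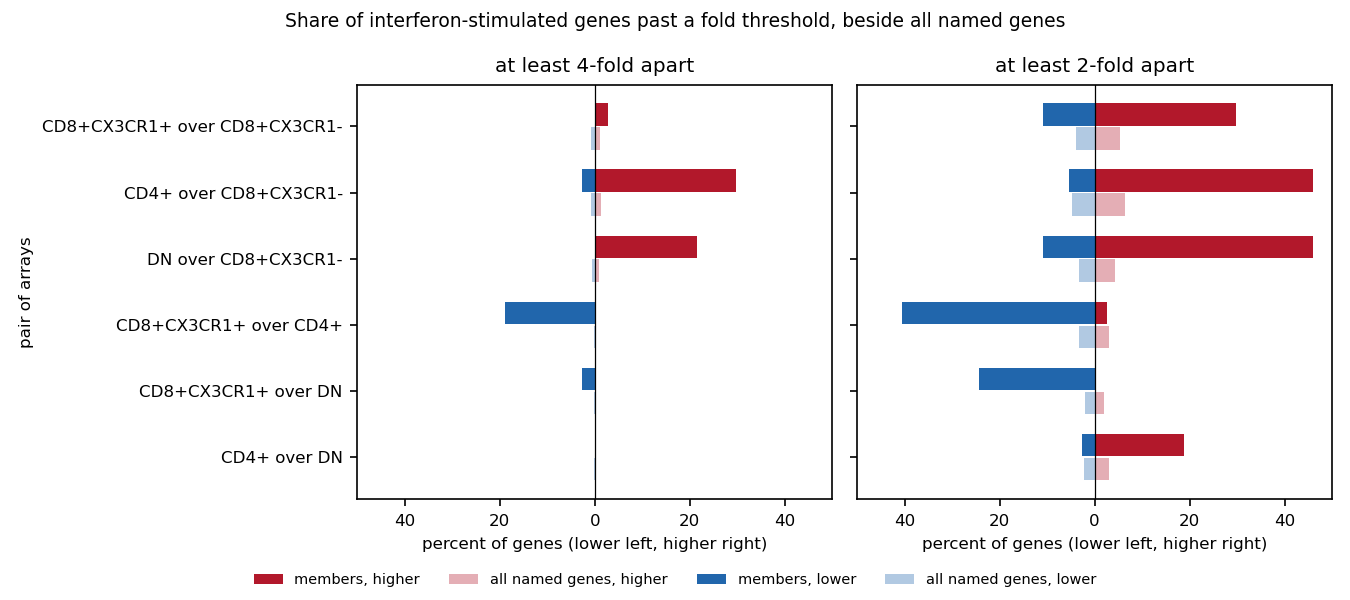
Share of the 37 measured interferon-stimulated genes (dark bars) and of all 18193 named genes (pale bars) that were at least 4-fold (left) or at least 2-fold (right) higher or lower, in percent, for 6 pairs of arrays. The longest bars are those of CD4+ and DN DCs over CD8+CX3CR1- DCs, with 17 of 37 genes at least 2-fold higher in each.

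The IFIT genes encode proteins that bind viral RNA and hold back its translation. Of the 3, 2 were at least 4-fold higher in CD4+ than in CD8+CX3CR1- DCs, with a median log2 difference of 2.41. Ifit3 had a signal of 158 in CD8+CX3CR1+ DCs, 1133 in CD4+ DCs, 427 in DN DCs and 40.8, under the background level, in CD8+CX3CR1- DCs. Ifit2 was 217 in CD8+CX3CR1+ DCs, 932 in CD4+ DCs, 421 in DN DCs and 176 in CD8+CX3CR1- DCs. Ifit1 was 92.7 in CD8+CX3CR1+ DCs, 203 in CD4+ DCs, 148 in DN DCs and 2.7 in CD8+CX3CR1- DCs. All 3 thus followed the same order of arrays, and CD4+ DCs exceeded CD8+CX3CR1+ DCs by 7.18-fold for Ifit3, 4.29-fold for Ifit2 and 2.19-fold for Ifit1. Against CD8+CX3CR1- DCs, Ifit3 was at least 20.3-fold higher in CD4+ DCs and at least 7.66-fold higher in DN DCs, while Ifit2 was 5.30-fold and 2.39-fold higher. Each of the 3 genes rests on a single probe set, and Ifit3 has a close neighbouring copy, Ifit3b, whose transcripts the probes may not tell apart.

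The oligoadenylate synthetases make a second messenger that activates the ribonuclease RNase L. In this family of 5, 3 genes were at least 4-fold higher in CD4+ than in CD8+CX3CR1- DCs and the median was 3.27. Oas1a had a signal of 286 in CD8+CX3CR1+ DCs, 1216 in CD4+ DCs, 702 in DN DCs and 110.0 in CD8+CX3CR1- DCs. Oas2 was 95.6 in CD8+CX3CR1+ DCs, 704 in CD4+ DCs, 468 in DN DCs and 2.5 in CD8+CX3CR1- DCs. Both were thus high in CD4+ and DN DCs and near or under background in CD8+CX3CR1- DCs, with CD8+CX3CR1+ DCs between. Oas1a was 11.1-fold higher in CD4+ DCs than in CD8+CX3CR1- DCs and 6.38-fold higher in DN DCs, and Oas2 was at least 12.6-fold and at least 8.40-fold higher. Oas2 was also the only gene of the set at least 4-fold lower in CD8+CX3CR1+ DCs than in DN DCs (4.90-fold). Oas3 separated the arrays in another way, with 24.3 in CD8+CX3CR1+ DCs, 197 in CD4+ DCs, 149 in DN DCs and 32.2 in CD8+CX3CR1- DCs, so that both CD8+ subsets were under background. Oasl2, a relative with ubiquitin-like domains, was 170 in CD8+CX3CR1+ DCs, 536 in CD4+ DCs, 215.5 in DN DCs and 34 in CD8+CX3CR1- DCs. Oasl1, which in mice is known to limit the translation of Irf7, did not show the differences of its family. It was 64.5 in CD8+CX3CR1+ DCs, 59.4 in CD4+ DCs, 73.2 in DN DCs and 115 in CD8+CX3CR1- DCs. No pair was 2-fold apart, and all but the CD8+CX3CR1- value lay near background, where signals have no order. The Oas1 genes of the mouse are a cluster of close copies, so the Oas1a values may include some of their signal.

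Isg15 encodes a ubiquitin-like protein that is attached to other proteins, in mice chiefly by the ligase Herc6, and removed by the protease Usp18, which also damps signalling at Ifnar2. Usp18 had a signal of 368 in CD8+CX3CR1+ DCs, 645 in CD4+ DCs, 241 in DN DCs and 174.5 in CD8+CX3CR1- DCs. It was 2.68-fold higher in CD4+ DCs than in DN DCs, and its signal in CD8+CX3CR1+ DCs was above that in DN DCs, which was not so for any of the IFIT and oligoadenylate synthetase genes described above. Herc6 was 256 in CD8+CX3CR1+ DCs, 470.2 in CD4+ DCs, 565 in DN DCs and 260.3 in CD8+CX3CR1- DCs. Its values were thus nearly equal in the 2 CD8+ subsets, and those in CD4+ and DN DCs lay within 2-fold of each other.

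Of the 9 antiviral effectors, Rsad2, Isg20 and Ifitm3 were at least 4-fold higher in CD4+ than in CD8+CX3CR1- DCs, but the median was 0.00. Rsad2 encodes viperin, which makes a chain-terminating nucleotide, and had a signal of 527 in CD8+CX3CR1+ DCs, 1535 in CD4+ DCs, 919 in DN DCs and 159 in CD8+CX3CR1- DCs. Isg20, an exonuclease that degrades single-stranded RNA, was 243 in CD8+CX3CR1+ DCs, 1068 in CD4+ DCs, 516 in DN DCs and 67.8 in CD8+CX3CR1- DCs. CD4+ DCs exceeded CD8+CX3CR1- DCs by 9.68-fold for Rsad2 and by 15.7-fold for Isg20. The Isg20 value in CD8+CX3CR1- DCs lay close to that array's own background, 62.6, and with the background level at the 95th percentile, 73.3, the log2 difference was 3.86 against 3.98. Rsad2 had 2 further probe sets above 55.7 in CD4+ DCs, and both gave a smaller difference in the same direction, 0.55 and 1.59 on the log2 scale against 3.27.

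Ifitm3, which blocks the fusion of viruses with the membranes of endosomes, set a single array apart. Its signal was 3753 in CD8+CX3CR1+ DCs, 4934.5 in CD4+ DCs, 3893 in DN DCs and 437 in CD8+CX3CR1- DCs. It was the only gene of the set at least 4-fold higher in CD8+CX3CR1+ DCs than in CD8+CX3CR1- DCs (8.59-fold), and CD4+ and DN DCs exceeded CD8+CX3CR1- DCs by 11.3-fold and 8.91-fold. Across the CD8+CX3CR1+, CD4+ and DN arrays its range was narrow, with no pair 2-fold apart.

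Mx1 and Mx2 encode dynamin-like GTPases that trap viral components, and C57BL/6 mice, like most laboratory strains, are known to carry defective copies of both. Mx1 had a signal of 285 in CD8+CX3CR1+ DCs, 411 in CD4+ DCs, 539.7 in DN DCs and 724 in CD8+CX3CR1- DCs and was thus highest where Rsad2 was lowest. Mx2 was under background at 9.6 in CD8+CX3CR1+ DCs, 13.3 in CD4+ DCs and 17.1 in DN DCs, against 127 in CD8+CX3CR1- DCs. Mx1 was 2.54-fold lower in CD8+CX3CR1+ DCs than in CD8+CX3CR1- DCs, and Mx2 at least 2.29-fold lower on each of the other arrays. The remaining effectors differed little. Eif2ak2, the RNA-activated kinase PKR, lay between 198 and 316, Samd9l between 1430.1 and 2242.5, and Cmpk2, a nucleotide kinase gene next to Rsad2, was above background in DN DCs alone (78.6). Adar, which edits adenosines in double-stranded RNA, was 2.10-fold lower in DN DCs than in CD8+CX3CR1- DCs, although its other probe sets gave log2 differences of -0.02 and 0.14.

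The genes of the cytoplasmic RNA sensors had their highest signals in CD4+ DCs and their next highest in DN DCs. Over the 6 sensors of RNA and DNA, the median log2 difference between CD4+ and CD8+CX3CR1- DCs was 0.80 and 1 gene, Ddx58, passed 4-fold. Ddx58, which encodes RIG-I, had a signal of 74.6 in CD8+CX3CR1+ DCs, 379.9 in CD4+ DCs, 293 in DN DCs and 63.8 in CD8+CX3CR1- DCs. Ifih1, which encodes MDA5, was 1061.5 in CD8+CX3CR1+ DCs, 2196 in CD4+ DCs, 1889 in DN DCs and 601 in CD8+CX3CR1- DCs. Dhx58, which encodes their regulator LGP2, was 197 in CD8+CX3CR1+ DCs, 681 in CD4+ DCs, 498 in DN DCs and 364 in CD8+CX3CR1- DCs. Ifih1 was lowest in CD8+CX3CR1- DCs and Dhx58 in CD8+CX3CR1+ DCs, while Ddx58 was close to background in both CD8+ subsets, which have no order there. CD4+ DCs exceeded CD8+CX3CR1+ DCs by 5.09-fold for Ddx58, 3.46-fold for Dhx58 and 2.07-fold for Ifih1. A further Ddx58 probe set above background in DN DCs gave a log2 difference of 0.34 from CD8+CX3CR1- DCs, against 2.20. With the background level at 73.3 this difference of Ddx58 came out just short of 4-fold. With its 3 probe sets averaged, Ddx58 differed by 0.86 between CD4+ and CD8+CX3CR1- DCs, against 2.57, by 0.85 between DN and CD8+CX3CR1- DCs, and by -0.78 between CD8+CX3CR1+ and CD4+ DCs, against -2.35, and passed 4-fold in none of these. Zbp1, a sensor of Z-form nucleic acids, was 119 in CD8+CX3CR1+ DCs, 309.7 in CD4+ DCs, 189 in DN DCs and 190.4 in CD8+CX3CR1- DCs. Of the PYHIN genes, whose products bind DNA, Ifi203 was above background in CD4+ DCs alone (69.5), and 4 further probe sets that carry Ifi203 or Ifi204 beside other symbols were not assigned to a gene.

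Of the 6 genes for signalling and nuclear factors, 0 passed 4-fold in any pair, and the median between CD4+ and CD8+CX3CR1- DCs was 0.52. Of all named genes, 0.0495% to 1.25% passed 4-fold per pair and direction, so a count of 0 among so few genes says little. Stat2 had a signal of 299 in CD8+CX3CR1+ DCs, 335 in CD4+ DCs, 291 in DN DCs and 187 in CD8+CX3CR1- DCs, with no pair 2-fold apart. Parp14, an ADP-ribosyltransferase, was 921 in CD8+CX3CR1+ DCs, 1359.7 in CD4+ DCs, 951 in DN DCs and 456 in CD8+CX3CR1- DCs, and its other probe set gave log2 differences from CD8+CX3CR1- DCs of 0.98 to 1.19 in the same direction. Parp12, of the same family, was 170.2 in CD8+CX3CR1+ DCs, 367 in CD4+ DCs, 166 in DN DCs and 515 in CD8+CX3CR1- DCs. Its highest signals were thus in CD4+ and CD8+CX3CR1- DCs, and it was 3.02-fold lower in CD8+CX3CR1+ DCs and 3.10-fold lower in DN DCs than in CD8+CX3CR1- DCs. Parp9 (708 to 1325), Sp100, a nuclear body protein gene (338 to 497), and Ifi35 (5708 to 7606) had no pair of arrays 2-fold apart.

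Of the other genes, Rtp4, which encodes a receptor-transporting protein, had a signal of 222 in CD8+CX3CR1+ DCs, 1053 in CD4+ DCs, 633.5 in DN DCs and 2.8 in CD8+CX3CR1- DCs. It was at least 18.9-fold higher in CD4+ DCs than in CD8+CX3CR1- DCs, at least 11.4-fold higher in DN DCs and at least 3.99-fold higher in CD8+CX3CR1+ DCs. Whether it counts as 4-fold apart between the CD8+ subsets turns on the background level, because this bound lies just under 4. The second of 2 Rtp4 probe sets was under background on all 4 arrays, and averaged with it the log2 difference was 2.12 between CD4+ and CD8+CX3CR1- DCs, against 4.24. It was 1.75 between DN and CD8+CX3CR1- DCs, against 3.51, and -1.12 between CD8+CX3CR1+ and CD4+ DCs, against -2.25, so that these 2 no longer passed 4-fold. Slfn8, a Schlafen family gene, was 531 in CD8+CX3CR1+ DCs, 928 in CD4+ DCs, 733 in DN DCs and 202 in CD8+CX3CR1- DCs, in the same order as Rtp4. Its close relatives Slfn9 and Slfn10 may share its probes. Xaf1, a gene of apoptosis, was 353 in CD8+CX3CR1+ DCs, 522 in CD4+ DCs, 346 in DN DCs and 158 in CD8+CX3CR1- DCs. Tor3a, a torsin ATPase gene, was 193 in CD8+CX3CR1+ DCs, 93.6 in CD4+ DCs, 188 in DN DCs and 461 in CD8+CX3CR1- DCs. It was thus highest on the array where the set was most often lowest. Its 4.93-fold lower value in CD4+ DCs than in CD8+CX3CR1- DCs did not hold at its other 2 probe sets, which gave log2 differences of 0.04 and 0.52. Slfn5 (223 to 299) and Lgals3bp (177 to 302) had no pair 2-fold apart.

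Apart from Ifnb1, the measured transcripts of interferons themselves lay under background. Of 8 measured type I interferon genes, 7 were under 55.7 on all 4 arrays, and Ifnb1, the interferon beta gene, had a signal of 62.3 in CD8+CX3CR1+ DCs, 52.6 in CD4+ DCs, 41.2 in DN DCs and 126 in CD8+CX3CR1- DCs. Ifng, which encodes interferon gamma, was at most 27.6. The array that was highest for Ifnb1 was thus the one most often lowest among the measured genes of the 39. The Ifnb1 signal there was only 2.26-fold above the background level.

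Of the receptor, kinase and STAT genes measured, 0 passed 4-fold in any pair, where 0.0495% to 1.25% of all named genes passed per pair and direction. Ifnar1 had a signal of 871 in CD8+CX3CR1+ DCs, 552 in CD4+ DCs, 685 in DN DCs and 796 in CD8+CX3CR1- DCs. Ifnar2 was 809 in CD8+CX3CR1+ DCs, 723 in CD4+ DCs, 658 in DN DCs and 474 in CD8+CX3CR1- DCs. Neither chain had a pair of arrays 2-fold apart, and CD4+ DCs were lowest for Ifnar1. Among the 6 measured interferon receptor genes, Il10rb, a chain shared by the receptors for interferon lambda and interleukin 10, had the widest range, from 417 in CD8+CX3CR1+ DCs to 1541 in CD4+ DCs. Jak1 lay between 905 and 1087.5, Jak2 between 2742 and 4557, and Stat3 between 542 and 983. Tyk2 was 705 in CD8+CX3CR1+ DCs, 1103 in CD4+ DCs, 910.4 in DN DCs and 1939 in CD8+CX3CR1- DCs. Irf9, the partner of Stat2, was 394 in CD8+CX3CR1+ DCs, 541 in CD4+ DCs, 424 in DN DCs and 466.5 in CD8+CX3CR1- DCs.

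Of 5 interferon regulatory factor genes, 0 passed 4-fold in any pair (all named genes 0.0495% to 1.25% per pair and direction). Irf7, itself induced by interferon, was 302 in CD8+CX3CR1+ DCs, 548 in CD4+ DCs, 328 in DN DCs and 426 in CD8+CX3CR1- DCs, and Irf1 was 813 in CD8+CX3CR1+ DCs, 1779 in CD4+ DCs, 1585 in DN DCs and 1194 in CD8+CX3CR1- DCs. Both were highest in CD4+ DCs and lowest in CD8+CX3CR1+ DCs. Irf7 had no pair of arrays 2-fold apart, however, and its signals in CD8+CX3CR1+ and DN DCs differed only 1.09-fold. Irf5 was highest in CD8+CX3CR1- DCs, with 536 in CD8+CX3CR1+ DCs, 953 in CD4+ DCs, 1046 in DN DCs and 1645 in CD8+CX3CR1- DCs. Among 6 negative regulators was the phosphatase gene Ptpn6, which encodes SHP-1. Its signal was 3660.0 in CD8+CX3CR1+ DCs, 3550.4 in CD4+ DCs, 3056 in DN DCs and 897 in CD8+CX3CR1- DCs. Ptpn6 was thus lowest on the array where the set was most often lowest. It was 4.08-fold higher in CD8+CX3CR1+ than in CD8+CX3CR1- DCs. Socs1 was under background on all 4 arrays, and Socs3 lay between 95.1 and 250.4.

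**Figure D4:**
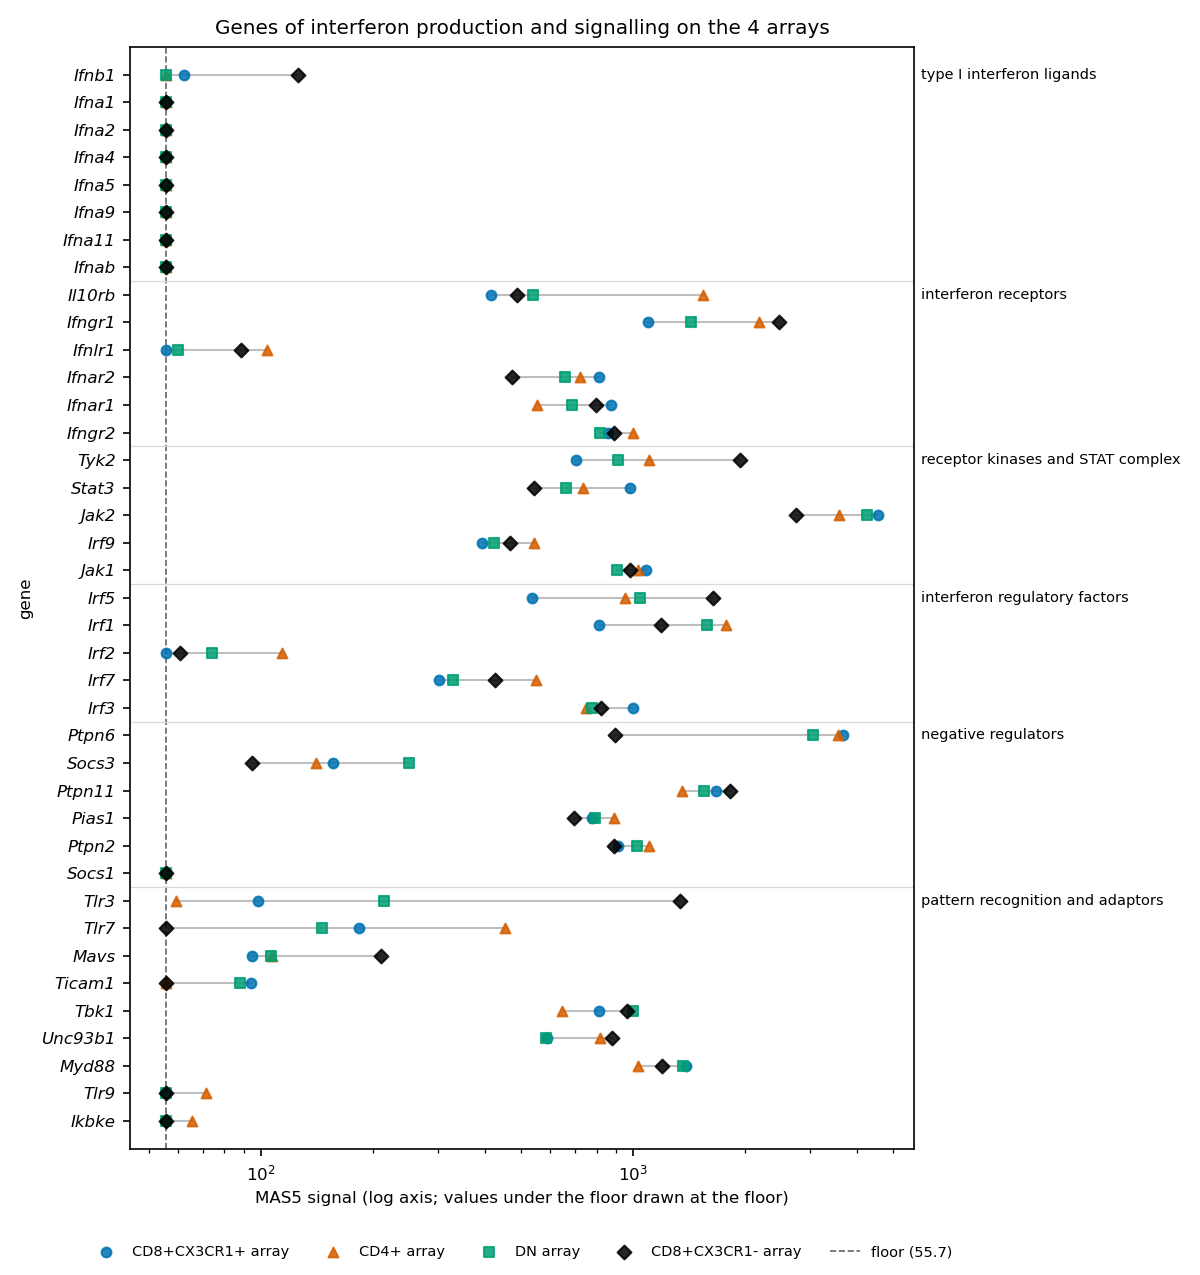
Signal of genes of interferon production and signalling (rows, grouped by role) on the CD8+CX3CR1+, CD4+, DN and CD8+CX3CR1- arrays, on a log axis, with values under 55.7 drawn at that level. The interferon genes stand at background except Ifnb1, most receptor and kinase genes span less than 2-fold, and Tlr3 and Tlr7 span the widest ranges.

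Of 9 measured genes for pattern recognition and its adaptors, Tlr7 and Tlr3 differed most and in opposite ways. Tlr7, a receptor for single-stranded RNA, had a signal of 184 in CD8+CX3CR1+ DCs, 452 in CD4+ DCs, 147 in DN DCs and 5.6 in CD8+CX3CR1- DCs, the same array order at its ends as the IFIT genes. Tlr3, a receptor for double-stranded RNA that also stands in the list of CD8 DC markers, was 98.4 in CD8+CX3CR1+ DCs, 59.2 in CD4+ DCs, 214 in DN DCs and 1337.5 in CD8+CX3CR1- DCs. Mavs, the adaptor of RIG-I and MDA5, was 95 in CD8+CX3CR1+ DCs, 107 in CD4+ DCs, 107 in DN DCs and 211 in CD8+CX3CR1- DCs. It was highest in CD8+CX3CR1- DCs, in which its sensor Ifih1 was lowest. Ticam1, the adaptor of Tlr3, was above background at 94.4 in CD8+CX3CR1+ DCs and 88.1 in DN DCs only.

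A further list held 32 measured genes known to respond to type I interferon that are not among the 39. Against CD8+CX3CR1- DCs, 3 of these 32 were at least 4-fold higher in CD8+CX3CR1+ DCs (all named genes 1.15%), 4 in CD4+ DCs (1.25%) and 4 in DN DCs (0.890%), and 0 were lower in any of these. Their median log2 difference from CD8+CX3CR1- DCs was 0.06 in CD8+CX3CR1+ DCs, 0.08 in CD4+ DCs and 0.15 in DN DCs. Between CD4+ and DN DCs, 12 of the 32 were higher in CD4+ DCs and 17 lower, with a median of -0.03. Against CD4+ DCs, 6 were higher in CD8+CX3CR1+ DCs and 23 lower, with a median of -0.27. Ms4a4c, Ifi27 and Ifitm1, like Ifitm3, were lowest in CD8+CX3CR1- DCs. Ms4a4c was 1747 in CD8+CX3CR1+ DCs, 2417 in CD4+ DCs, 2767 in DN DCs and 120.5 in CD8+CX3CR1- DCs. Ifi27 was 966 in CD8+CX3CR1+ DCs, 1899 in CD4+ DCs, 1428 in DN DCs and 183 in CD8+CX3CR1- DCs. Ifitm1, a close relative of Ifitm3, was 397 in CD8+CX3CR1+ DCs, 519 in CD4+ DCs, 940.2 in DN DCs and 98.0 in CD8+CX3CR1- DCs. Bst2, which encodes tetherin, was 659.5 in CD8+CX3CR1+ DCs, 89.8 in CD4+ DCs, 232 in DN DCs and 235.5 in CD8+CX3CR1- DCs. It was thus lowest where most measured genes among the 39 were highest.

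Of 10 measured genes induced chiefly by interferon gamma, 0 were at least 4-fold higher in CD4+ DCs than in CD8+CX3CR1- DCs (all named genes 1.25%). The chemokine gene Cxcl9 was the 1 gene at least 4-fold lower (0.819%). By direction alone, 7 of the 10 were higher in CD4+ DCs and 3 lower, and the median was 0.13. Cxcl9 had a signal of 506 in CD8+CX3CR1+ DCs, 447 in CD4+ DCs, 800.4 in DN DCs and 4429.6 in CD8+CX3CR1- DCs. Iigp1 (57.4 in CD4+ DCs and 181 in CD8+CX3CR1- DCs) and Ido1 (under background in CD4+ DCs and 162 in CD8+CX3CR1- DCs) were also highest in CD8+CX3CR1- DCs, while Irgm2 was highest in DN DCs (320.0) and 112 in CD8+CX3CR1- DCs.

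Markers of other cell types than DCs varied between the arrays as well. The summed signal of 9 red pulp macrophage genes was 2391 in CD8+CX3CR1+ DCs, 4249.9 in CD4+ DCs, 2169 in DN DCs and 965 in CD8+CX3CR1- DCs. The sum was thus highest in CD4+ DCs and lowest in CD8+CX3CR1- DCs, as the interferon-stimulated genes described here most often were. Gene by gene, 4 were higher and 4 lower in CD8+CX3CR1+ than in CD4+ DCs, with a median log2 difference of 0.00. Against DN DCs, 6 were higher and 2 lower in CD4+ DCs, with a median of 0.86. Of the 9, 8 were above background in CD8+CX3CR1+ DCs, 7 in CD4+ DCs, 5 in DN DCs and 5 in CD8+CX3CR1- DCs. The F4/80 gene Adgre1 made up 3068 of the CD4+ sum and 1692 of the DN sum, whereas Spic, the defining transcription factor gene of these macrophages, lay between 56.9 and 79.6 on all 4 arrays and Hmox1 was above background in CD8+CX3CR1- DCs alone (71.6). The summed signal of 5 monocyte genes was 2694 in CD8+CX3CR1+ DCs, 7926 in CD4+ DCs, 3858 in DN DCs and 4061 in CD8+CX3CR1- DCs, of which Lyz2 made up 7284 in CD4+ DCs. The summed plasmacytoid DC genes (7 measured) were highest in CD8+CX3CR1+ DCs, at 1052, against 514 to 627 on the others. The 4 T cell, 4 NK cell and 5 neutrophil genes each summed to at most 259.9 on any array, 4 B cell genes to between 327 and 495, and both erythroid genes were under background. Cd79a of B cells, Cd3g of T cells, Ncr1 of NK cells, S100a9 and Camp of neutrophils, Ly6d of plasmacytoid DCs and Vcan of monocytes were under background on all 4 arrays. The part of such cells in the differences of the interferon-stimulated genes was not tested.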

How the data were processed

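The members and gene lists were chosen with earlier results of these data known. Per the submitters' processing notes, the authors made the deposited intensity values (signal per probe set, linear scale) with MAS5; no version is stated. Without the top and bottom 2% of probe sets, mean signal was 150.0 on every array, so each array had been scaled as a whole, and differences in total RNA per cell cannot be seen. Of 45101 probe sets, 64 are controls, 34945 have 1 gene symbol in the platform annotation, 932 several and 9160 none. Only those with 1 symbol were named. Of the Entrez identifiers, 99.4% stand in the RefSeq gene table (GRCm38.p6), which changed 0 symbols.

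Where a gene had several probe sets, the one of highest mean log2 signal stands for it. Signals under 55.7 were raised to it. This is the 90th percentile, over all arrays together, of 127 probe sets for odorant, pheromone and taste receptor and keratin-associated protein genes, which spleen is not known to express. On single arrays it was 46.0 (CD8+CX3CR1+), 59.9 (CD4+), 52.8 (DN) and 62.6 (CD8+CX3CR1-). A fold with 1 array under it is a bound, written "at least", and none is given where both were. A gene was called at 4-fold, and 2-fold was a second threshold. With 1 array per group no test exists. A gene's difference varied over its probe sets with a root mean square standard deviation of 0.42 to 0.55 (log2), which covers probe error only. Values on all arrays are given for members past 4-fold in at least 1 pair, and otherwise mostly by range. Of the pathway lists, the up to 4 genes with the widest range and the main receptor and signalling genes are named; Socs1 and further members given on all arrays were added after their values were seen. The calculations (Python 3.11.15, numpy 2.4.6, pandas 2.3.3) were tested on simulated arrays. The alternatives tried were scaling to an equal median, quantile normalization, floors at the 75th or 95th percentile (35.3 or 73.3), no floor, the mean over probe sets, and leaving out _x, _s and _a probe sets. Promoters came from RefSeq (GRCm38.p6).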

Additional observations from a re-analysis of the deposited data

How the results depend on the processing

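The 6 medians of the set moved by less than the probe set spread under all 7 alternatives, and none changed sign. That spread belongs to single genes and is a loose measure for a median over 37 genes. For CD4+ against DN DCs it was 0.50, wider than the median of 0.34, which fell to 0.09 with equal medians. The median between the CD8+ subsets, 0.02, ran from 0 to 0.23. CD4+ DCs were highest for 20 to 25 genes and CD8+CX3CR1- DCs lowest or at background for 18 to 22. These counts were added after the data were seen. They were out of 35 to 37 genes with a difference, or 32 without _x, _s and _a probe sets. The count of 18 was out of those 32. Of 29 differences past 4-fold, 29 kept their direction under 6 alternatives, and 21 stayed past 4-fold with probe sets averaged and 24 with equal medians. A change of floor cannot reverse such a difference. Nor can equal medians, which lower the CD4+ array by 0.22 and raise the others by 0.04 to 0.10 (log2). For these alternatives the kept direction therefore says little. Without _x, _s and _a probe sets 24 of 25 kept their direction, and Tor3a in CD4+ against CD8+CX3CR1- DCs turned to 0.04 (log2). Among the counts past 4-fold, CD8+CX3CR1+ DCs had 1 gene above CD8+CX3CR1- DCs, which became 2 with equal medians, 3 with the 75th percentile floor and 5 without a floor, and 0 below them, which became 1 without a floor. In CD4+ DCs, the 1 gene below CD8+CX3CR1- DCs became 3 without a floor and 0 with probe sets averaged or without _x, _s and _a probe sets. In DN DCs, 8 genes above CD8+CX3CR1- DCs became 5 with probe sets averaged, and 0 below became 1 without a floor. In CD8+CX3CR1+ DCs, 7 genes below CD4+ DCs became 3 with equal medians, and 1 gene below DN DCs became 2 with the 75th percentile floor or none. Without a floor 1 gene was 4-fold lower in CD4+ than in DN DCs. Counts at 2-fold were higher and lower by 11 and 4, 17 and 2, and 17 and 4 genes for CD8+CX3CR1+, CD4+ and DN DCs against CD8+CX3CR1- DCs, by 1 and 15 for CD8+CX3CR1+ against CD4+, by 0 and 9 for CD8+CX3CR1+ against DN, and by 7 and 1 for CD4+ against DN. The causes of these changes were not tested. No paired analysis was possible because each subset has 1 array. Signals near 55.7 have no order.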

Other observations

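Of the members with both a signal and a promoter in the table, 9 held the response element core (GAAA, any 2 bases, GAAA) before the start and 17 did not. In CD4+ against CD8+CX3CR1- DCs, 4 of the 9 and 5 of the 17 were at least 4-fold higher (all named genes 1.25%), with median log2 differences of 1.87 and 0.21. In DN against CD8+CX3CR1- DCs these counts were 3 of 9 and 3 of 17 (all named genes 0.890%), with medians of 1.42 and 0.50. Ifitm3, Isg20, Ddx58, Ifit2 and Oasl2 were at least 4-fold higher in CD4+ DCs without these letters in the window searched. This split was made after the values were seen, and it has no test.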
